A study of Mus musculus with 22 samples.

Results

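The Cyp4a genes described here are the 6 protein-coding genes Cyp4a12a, Cyp4a12b, Cyp4a14, Cyp4a10, Cyp4a31 and Cyp4a32, among 37991 genes in the RNA-seq tables. They lie in this order on mouse chromosome 4 at chr4:114971651-115294207 (NCBIM37, the same assembly as mm9), a span of 323 kb. Cyp4a12a (ENSMUSG00000066071) is at chr4:114971651-115005420, Cyp4a12b (ENSMUSG00000078597) at chr4:115084229-115111639, Cyp4a14 (ENSMUSG00000028715) at chr4:115158805-115168747, Cyp4a10 (ENSMUSG00000066072) at chr4:115190869-115206254, Cyp4a31 (ENSMUSG00000028712) at chr4:115236254-115251618 and Cyp4a32 (ENSMUSG00000063929) at chr4:115273574-115294207. Cyp4a14 is on the minus strand and the others are on the plus strand. The last base of the cluster is 5.52 Mb before Rlf (chr4:120817978-120887689), the gene that carries the mutation. The genes were listed by name and chosen by their RNA counts in wild-type and mutant livers, which were known when they were proposed. Their RNA difference between genotypes is therefore a description with no test.

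The mice were FVB/NJ (labelled FVB, the Line3 colony of the study), and wild-type and mutant animals alike were homozygous for a multi-copy GFP transgene driven by the human alpha-globin promoter. The mutants were homozygous for MommeD28, an allele of Rlf induced with the mutagen ENU and described as null. Whole-genome bisulphite sequencing was run on whole embryos at E10.5 and on liver at E14.5 and at E18.5, each from 2 wild-type animals and 2 mutants. The E10.5 embryos were labelled male and the E18.5 livers female, while replicate 1 of each E14.5 pair was male and replicate 2 female. RNA-seq covered 3 wild-type and 3 mutant E14.5 livers, with replicates 1 and 2 male and replicate 3 female. Each library was taken as a separate animal, since the study speaks of independent biological replicates for the RNA-seq and of littermates for the bisulphite livers of the middle stage. The p-values measure the spread between these libraries.

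Cyp4a enzymes are cytochrome P450 fatty acid omega-hydroxylases of the endoplasmic reticulum. They oxidise the terminal carbon of medium and long chain fatty acids, and of arachidonic acid in the kidney. Cyp4a10 and Cyp4a14 are known targets of the nuclear receptor PPARa and are induced in liver by fasting and by fibrates. Cyp4a12a and Cyp4a12b are known as androgen-dependent genes of male kidney and liver. Fetal liver is mainly a blood-forming organ at E14.5, with hepatoblasts among many erythroid cells.

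The genes are close copies of each other. Over aligned coding bases, Cyp4a12a and Cyp4a12b were 98.5% identical, Cyp4a10 and Cyp4a32 97.2%, Cyp4a10 and Cyp4a31 96.6%, and Cyp4a31 and Cyp4a32 96.0%. Every other pair was between 75.8% and 80.3% identical. Of the stretches of 50 bases within exons, 47.8% of those of Cyp4a12a and 48.4% of those of Cyp4a12b occurred once in the genome, against 99.7% for Cyp4a14, 83.3% for Cyp4a31, 68.9% for Cyp4a10 and 59.98% for Cyp4a32. A read from the shared stretches has no single home, and how such reads entered the deposited counts was not examined. The counts of these genes are therefore uncertain. So is their split between Cyp4a12a and Cyp4a12b, and among Cyp4a10, Cyp4a31 and Cyp4a32.

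Few CpGs lie at these start sites, as their sequences show. The sequences run from 250 bases before to 49 bases after the annotated start, 5′ to 3′ on the gene's strand, in NCBIM37, with CpGs in capitals. Cyp4a12a and Cyp4a12b are shown because they were the Cyp4a genes that passed the filter on low RNA counts, and Cyp4a10 because of the methylation pattern described below.
Cyp4a12a, chr4:114971401-114971700, plus strand: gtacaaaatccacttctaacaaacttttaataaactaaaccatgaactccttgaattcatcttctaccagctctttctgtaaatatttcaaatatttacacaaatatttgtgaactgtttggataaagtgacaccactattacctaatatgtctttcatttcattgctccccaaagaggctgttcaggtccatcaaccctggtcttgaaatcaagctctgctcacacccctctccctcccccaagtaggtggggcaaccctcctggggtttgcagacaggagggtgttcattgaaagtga
Cyp4a12b, chr4:115083979-115084278, plus strand: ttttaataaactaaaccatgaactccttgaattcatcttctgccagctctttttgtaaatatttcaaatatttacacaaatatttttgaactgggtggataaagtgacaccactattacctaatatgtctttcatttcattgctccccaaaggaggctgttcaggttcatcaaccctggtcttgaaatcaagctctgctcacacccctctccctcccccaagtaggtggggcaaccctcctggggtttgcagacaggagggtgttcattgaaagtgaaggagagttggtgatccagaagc
Cyp4a10, chr4:115190619-115190918, plus strand: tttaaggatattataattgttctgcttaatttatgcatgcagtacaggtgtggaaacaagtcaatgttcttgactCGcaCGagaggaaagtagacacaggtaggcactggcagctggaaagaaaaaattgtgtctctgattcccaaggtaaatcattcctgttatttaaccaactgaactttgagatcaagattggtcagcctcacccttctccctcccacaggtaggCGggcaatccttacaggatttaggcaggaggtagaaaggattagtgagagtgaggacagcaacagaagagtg
The first and the second of these hold 0 CpGs and were 97.8% identical over 276 aligned bases. The same stretch holds 3 CpGs in Cyp4a10, 1 in Cyp4a14, 2 in Cyp4a31 and 5 in Cyp4a32, where the median of 22367 protein-coding genes was 11.

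A few motifs were searched on both strands in the same 300 bases. TTCNNNGAA, the palindrome bound by STAT factors, occurred in Cyp4a12a from position 36, in Cyp4a12b from position 13 and in Cyp4a14 from position -205, counted from the annotated start, and in 7.94% of all 22367 promoters. AGGTCA, the unit that many nuclear receptors bind, occurred in Cyp4a14 at position -92 and in 14.4% of promoters. Its direct repeat with a spacing of 1 base, the element bound by PPARa with RXR, occurred in none of the 6 genes and in 0.0581% of promoters. CAAAGTCCA, a form of the HNF4A element, likewise had no match here, against 0.456% of promoters. TATAAA occurred in Cyp4a31 and Cyp4a32 on the minus strand and in 13.4% of promoters. A match is a string of letters and was not tested for binding. Only exact matches to these strings in these 300 bases were searched. Elements with other letters or farther away would be missed.

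Among the 6 Cyp4a genes, RNA was counted mainly to Cyp4a12a. The 3 wild-type livers had 76, 92 and 102 Cyp4a12a counts and the 3 mutant livers 42, 39 and 39, in libraries of 12928313 to 14621004 counts. As CPM, counts scaled to a common library size with TMM factors, these were 5.79, 6.07 and 7.15 CPM in wild-type and 3.26, 2.81 and 2.73 CPM in mutant livers. All the mutant livers were therefore below all the wild-type livers. The means were 6.34 CPM ± 0.715 (SD, n = 3) and 2.93 CPM ± 0.282 (SD, n = 3), a mutant to wild-type ratio of 0.463, which stayed between 0.438 and 0.495 when any 1 library was left out. This contrast is the one that drew attention to the gene, so nothing is concluded from it. Across all 14183 genes tested, 9.83% had mutant livers wholly below wild-type livers.

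**Figure D1:**
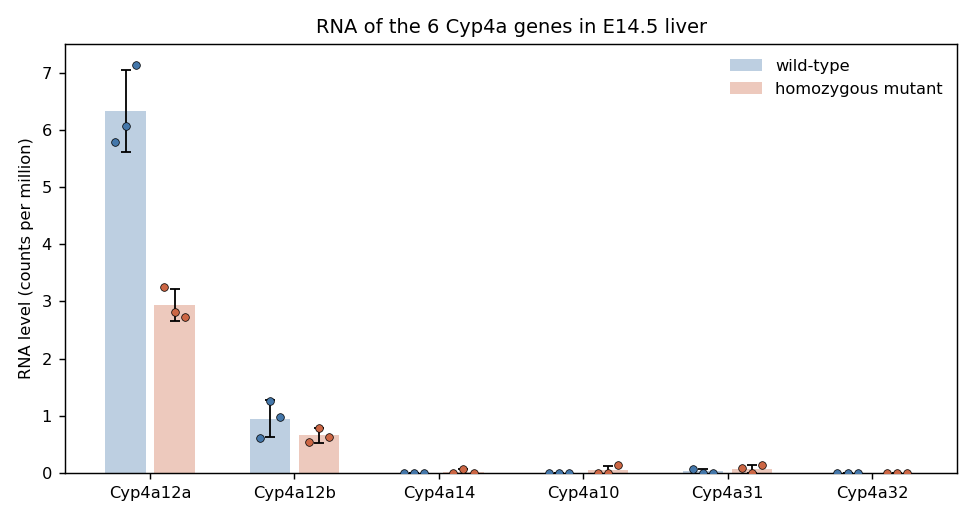
RNA level of the 6 Cyp4a genes in E14.5 liver in CPM, with 1 point per library, bars at the mean and error bars of 1 SD (n = 3 per genotype). Cyp4a12a lies at 5.79 to 7.15 in wild-type and 2.73 to 3.26 in mutant livers, Cyp4a12b overlaps between genotypes, and the other 4 genes lie near 0.

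Cyp4a12b, the near-identical copy, had 8, 19 and 14 counts in wild-type livers and 7, 11 and 9 in mutant livers. Its levels were 0.948 CPM ± 0.323 (SD, n = 3) and 0.656 CPM ± 0.127 (SD, n = 3), and the groups overlapped. The ratio of the means was 0.691, and ran from 0.587 to 0.824 when a library was left out. Of the reads counted to either copy, Cyp4a12a took 82.9% to 90.5% in wild-type and 78% to 85.7% in mutant livers.

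Per kilobase of exon, the order of levels in wild-type livers was Cyp4a12a at 2.61 ± 0.294 RPKM (CPM per kilobase of exon), then Cyp4a12b at 0.396 ± 0.135 (SD, n = 3 for each), with the other 4 genes at or near 0. In mutant livers the same quantity was 1.21 ± 0.116 for Cyp4a12a and 0.274 ± 0.0530 for Cyp4a12b. All exonic bases entered this measure, also the stretches shared between genes, so it is not strictly comparable between genes. Among the remaining genes no order could be told. Cyp4a32 had 0 counts in all libraries. Cyp4a14 had 1 count in mutant replicate 2 and none elsewhere, and Cyp4a10 had 2 counts in mutant replicate 3 and none elsewhere. Cyp4a31 had 1 count in wild-type replicate 1, 1 in mutant replicate 1 and 2 in mutant replicate 3. A count of 0 allows up to 3 counts, which is 0.198 to 0.233 CPM in these libraries, for counting error only. Thus 2 of the 6 genes passed the filter on low counts.

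The sex of the livers was not used in choosing the genes. Cyp4a12a averaged 4.94 CPM in the 2 female livers and 4.48 CPM in the 4 male livers, a log2 difference of 0.11 ± 0.17 (SE, edgeR quasi-likelihood test with Benjamini-Hochberg adjustment, adjusted p = 0.998). Cyp4a12b averaged 0.806 and 0.800 CPM, a log2 difference of -0.01 ± 0.40 (SE, adjusted p = 0.998). Neither of the 2 genes tested was called for sex, 0 had an unadjusted p under 0.05, and DESeq2 called 0. Of all 14183 genes, 0.155% were called for sex. Female livers are also replicate 3, so sex and replicate number cannot be told apart.

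Rlf itself was at 70.0, 72.2 and 68.8 CPM in wild-type livers and 76.2, 79.7 and 67.5 CPM in mutant livers, with no call (log2 fold change 0.08 ± 0.07 SE, edgeR adjusted p = 0.646). An allele made by a chemical mutagen need not lower the RNA, so this level does not check the genotype labels.

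Cells of the liver were read from marker lists that were chosen with earlier results of these data known. Summed hepatoblast markers (10 genes, among them Alb and Afp) were at 55982 to 66872 CPM in wild-type and 68798 to 80126 CPM in mutant livers, with the mutants wholly above. Alb and Afp made up 89.4% to 90.8% of this sum, and without them it was 5574 to 6929 CPM against 6371 to 7395 CPM, which overlap. Only Alb and Trf of the 10 did not overlap between genotypes, and both were higher in mutants. The share of all genes tested that lay wholly higher in mutants was not computed, here or below. Of the 10 genes, 1 was called higher and 0 lower, where 0.698% of all genes tested were called higher and 0.691% lower, namely Trf, the iron carrier transferrin (log2 fold change 0.46, edgeR adjusted p = 0.0289). Megakaryocyte markers (4 genes) were at 443 to 465 CPM against 522 to 593 CPM, and 1 of them, Pf4, was called higher (log2 fold change 0.40, edgeR adjusted p = 0.0143). Itga2b, the platelet integrin chain, was at 76.0, 88.6 and 81.8 CPM in wild-type and 102.6, 93.3 and 109.6 CPM in mutant livers, with an edgeR adjusted p of 0.0687, and of 0.0322 with the replicate number as a block. With that block 2 of the 4 were called higher, where 1.85% of all genes were called higher and 1.39% lower. Markers of pancreas and gut (5 genes) were at 2.57 to 9.91 CPM against 1.30 to 2.03 CPM, again with no overlap, and 2 of them could be tested. Among these, Cpa1, a pancreatic carboxypeptidase, was at 8.61, 1.39 and 1.61 CPM in wild-type and 0.0775, 0.216 and 0.912 CPM in mutant livers, with an edgeR adjusted p of 0.0969, and of 0.00759 with the same block. Without Cpa1 the sums overlap, at 0.981 to 1.30 CPM against 1.08 to 1.32 CPM, and Vil1, the other gene tested, was higher in every mutant liver and not called (edgeR adjusted p = 0.823). Erythroid markers (10 genes) were at 28136 to 52448 CPM against 35146 to 38063 CPM and overlapped. The globins Hbb-b1 and Hba-a1 are the most abundant of them. All 10 had a log2 fold change below 0 (median -0.156), none was called, and Klf1 and Gata1, transcription factors of red cell formation, lay wholly lower in mutants (log2 fold changes of -0.21 and -0.15, edgeR adjusted p = 0.226 and 0.367). Of all genes tested, 9.83% lay wholly lower in mutants. The sums of endothelial, macrophage and mesenchymal markers (5 genes each) overlapped too, at 250.1 to 274.8 against 273.9 to 324.4, 246.5 to 272.3 against 249.5 to 266.9, and 762 to 1001 against 827 to 1239 CPM. None of these genes was called. All 5 endothelial genes had a log2 fold change above 0 (median 0.178), and Kdr, a receptor for vascular endothelial growth factor, did not overlap, at 42.3, 47.0 and 46.4 CPM in wild-type and 50.6, 47.4 and 54.3 CPM in mutant livers (edgeR adjusted p = 0.336). All 5 mesenchymal genes also had a log2 fold change above 0, and each overlapped. Kidney markers, from the other main site of Cyp4a expression, summed to at most 0.144 CPM, with Umod, Slc34a1 and Aqp2 at 0. The part of these cell types in the Cyp4a12a level was not tested, and in whole livers fewer cells of a type and less RNA per cell cannot be told apart.

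No tested gene around the cluster was called by genotype. Of 25 genes that overlap the cluster or lie within 250 kb of it, 10 could be tested. The edgeR test called 0 of them, 0 had an unadjusted p under 0.05, and DESeq2 called 0, where 1.39% of all genes were called. They are Tal1, Pdzk1ip1, Gm12834, Gm12833, Gm12839, Gm12848, 4732418C07Rik, Atpaf1, Mob3c and Mknk1. Tal1, a transcription factor of blood formation, was at 744 CPM in wild-type and 719 CPM in mutant livers. Gm12833 and Gm12839, inside the cluster, were at 1.81 and 1.62 CPM in wild-type and at 2.42 and 1.94 CPM in mutant livers. The pseudogenes Cyp4a28-ps, Cyp4a29-ps and Cyp4a30b-ps had no counts. Cyp4b1, a P450 of the same family named here after its values were seen, lies 3.10 kb after the cluster. It was at 0.610, 1.39 and 0.841 CPM in wild-type and 0.155, 0.288 and 0.140 CPM in mutant livers, with no overlap. Of all genes tested, 9.83% lay wholly lower in mutants. Cyp4b1 failed the filter on low counts. Without that filter its edgeR adjusted p was 0.0144, where 2.42% of all genes were called. As it was named after its values were seen, nothing is concluded from this p-value. Counting ignored strand, so reads of gene models that overlap on opposite strands cannot be told apart.

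The list of the pathway was also chosen with earlier results of these data known. It holds 58 genes of fatty acid omega-hydroxylation, beta-oxidation and PPARa response, and 51 were tested. Of these, 1 rose and 0 fell, against the same 0.698% and 0.691% of all genes. The median log2 difference was -0.013 over the list and -0.0017 over all genes tested. The gene that rose was Adh1, an alcohol dehydrogenase that can act on omega-hydroxy fatty acids. Adh1 was at 9.07, 9.50 and 9.81 CPM in wild-type and 19.8, 24.1 and 15.01 CPM in mutant livers (log2 fold change 1.05 ± 0.16 SE, edgeR adjusted p = 0.00682). Ppara was at 24.6 CPM ± 1.97 and 26.5 CPM ± 2.78 (SD, n = 3 each) and was not called (edgeR adjusted p = 0.691). With the replicate number as a block, 4 were called, 3 higher and 1 lower, against 1.85% and 1.39% of all genes. Adh1, Crot and Vnn1 were higher (log2 fold changes of 1.04, 0.25 and 0.47, edgeR adjusted p = 0.000518, 0.0333 and 0.0267). Fabp1, the liver fatty acid carrier, was lower (-0.41, edgeR adjusted p = 0.000944). Without the block, edgeR adjusted p was 0.117 for Crot, 0.133 for Vnn1 and 0.189 for Fabp1, whose groups overlapped. DESeq2 called 1 gene of the list.

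The genes whose pattern over the 6 livers was most like that of Cyp4a12a were Larp7, Bmp6, Fam169a, Upb1 and Dnahc8, with Pearson's r of log2 CPM of 0.994, 0.993, 0.993, 0.991 and 0.988 and Spearman's rho of at least 0.943, among 13631 genes. The 6 livers share 2 genotypes, so any gene that differs between them can rank high. Upb1, which acts in pyrimidine breakdown, was at 36.4 CPM in wild-type and 9.90 CPM in mutant livers on average, and Bmp6, a secreted regulator of iron balance, at 2.42 and 1.25 CPM.

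DNA methylation, a readout that the choice of genes did not use, was taken from CpGs that each of the 12 libraries covered by 6 reads or more. In the cluster 823 CpGs met that minimum, of which 800 are CpGs of the reference and 23 are not. The 800 are 39.7% of the 2017 reference CpGs of the cluster, against 61.4% of autosomal reference CpGs. The share of reference CpGs kept was 75.8% for the span of Cyp4a10, 67.1% for Cyp4a31, 61.9% for Cyp4a14, 44.8% for Cyp4a12b, 40.6% for Cyp4a12a and 24.7% for Cyp4a32. Depth over these CpGs in the cluster was 21.4 to 43.4 reads per library.

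The Cyp4a cluster was highly methylated in E10.5 embryos, at 84.3% and 83.6% in wild-type and 84.3% and 85.5% in mutant libraries. In E14.5 livers it was at 60.1% and 63.5% in wild-type and 64.5% and 63.8% in mutants. In E18.5 livers it was at 70.1% and 70.6% in wild-type and 74.6% and 69.9% in mutants. All 4 libraries of a stage lay apart from those of the other stages. The cluster thus fell by 21.5 points from E10.5 embryo to E14.5 liver and stood 8.33 points higher at E18.5. The 250 kb before it fell by 7.45 points from 50.4%, and the 250 kb after it fell by 7.80 points from 63.2%. Autosomal CpGs fell by 13.7 points. These differences between regions were not tested. Within a sex the cluster moved the same way, by -22.2 points between the 4 male E10.5 embryos and the 2 male E14.5 livers, and by 7.65 points between the 2 female E14.5 livers and the 4 female E18.5 livers, with no overlap in either. From E10.5 to E14.5 tissue and stage change together and cannot be told apart. From E14.5 to E18.5 the study describes a shift from mostly erythroblasts to mostly hepatoblasts in liver. A change within cells and a change of cells cannot be told apart in either contrast.

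**Figure D2:**
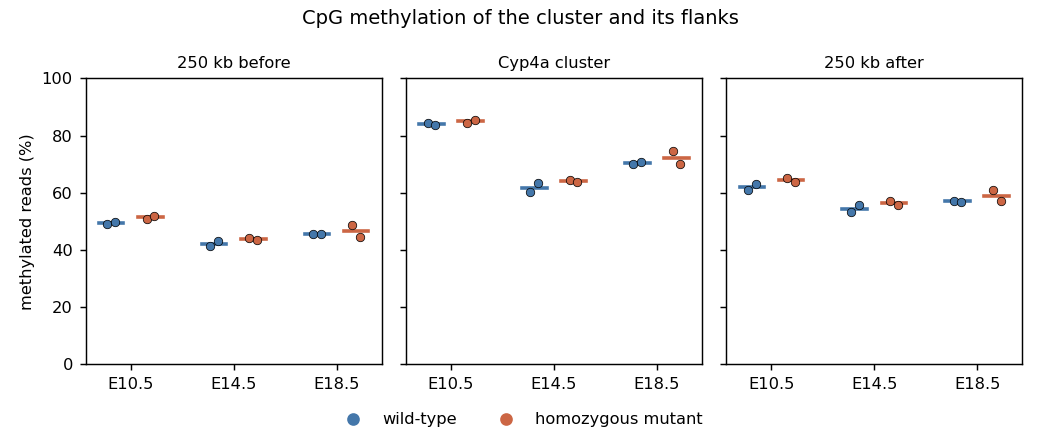
Percent of methylated reads in each bisulphite library over the Cyp4a cluster and the 250 kb to either side, with points for libraries and lines for group means (2 libraries per group). The cluster lies at 83.6% to 85.5% in E10.5 embryos and 60.1% to 64.5% in E14.5 livers, and the flanks move less.

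Averaged over the cluster, mutants were higher by 0.94 points in E10.5 embryos, by 2.36 points in E14.5 livers and by 1.94 points in E18.5 livers. The mean difference of 1.75 points had p = 0.0648 in an exact two-sided permutation test within tissue over 216 arrangements, whose smallest p is 0.00926, and within 1 tissue the smallest possible p is 0.333. With CpGs kept from 1 read on, the mean was 1.90 points and p = 0.0370 in the same exact permutation test. Leaving out 1 library gave 0.965 points without E18.5 mutant replicate 1, 1.18 without E14.5 wild-type replicate 1, 2.53 without E18.5 mutant replicate 2, and values between these without any other library. Autosomal CpGs as a whole were higher in mutants by 2.37, 2.35 and 1.91 points.

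Around the start sites, methylation could be tested for 4 of the 6 genes, namely Cyp4a12a with 3 CpGs, Cyp4a10 and Cyp4a31 with 7 each, and Cyp4a32 with 9. The window of 1 kb to either side held 2 measured CpGs in Cyp4a14 and none in Cyp4a12b. From E10.5 embryo to E14.5 liver all 4 windows were lower. Cyp4a12a fell by 34.4 points, Cyp4a10 fell by 24.7 points, Cyp4a31 fell by 25.9 points and Cyp4a32 fell by 18.3 points (edgeR quasi-likelihood test over 33190 windows, adjusted p between 1.19e-06 and 0.000295). In the same contrast 60.9% of all windows were called lower, with a median of -7.38 points. From E14.5 to E18.5 liver the 4 windows rose, by 21.9, 12.9, 11.5 and 8.46 points in the same order (edgeR adjusted p between 0.0159 and 0.0309), where 21.1% of all windows were called higher. None of the 4 kept this call in wild-type libraries alone, where 52 windows of the genome were called. The count was 0 without E14.5 wild-type replicate 1, E18.5 wild-type replicate 1 or E18.5 mutant replicate 1. It was 1 without E18.5 wild-type replicate 2, and 2 without replicate 2 of the mutants at either liver stage. In these refits, in the order named, 6.46%, 11.8%, 10.9%, 9.92%, 14.1% and 26.8% of all windows were called in either direction.

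The Cyp4a12a window in detail was at 79.3% and 100% in wild-type and 83.3% and 94.4% in mutant E10.5 embryos. In E14.5 livers it was at 51.1% and 60.3% in wild-type and 65.7% and 42.4% in mutants. The mutant values lie on both sides of the wild-type ones in these livers. In E18.5 livers it was at 65.1% and 70.0% in wild-type and 83.9% and 88.1% in mutants, a difference of 18.4 points with no overlap and an edgeR adjusted p of 0.585. At that stage 28.7% of all windows had mutants wholly above wild-type. The mean depth of its 3 CpGs ranged from 8 to 39.3 reads.

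The Cyp4a14 start-site window, with 2 CpGs, was too thin to test. It was at 84.4% and 90.0% in wild-type and 82.4% and 70.4% in mutant E10.5 embryos, and mutants were lower with no overlap. In E14.5 livers it was at 55.2% and 56.6% in wild-type and 61.1% and 61.5% in mutants, which were higher with no overlap. In E18.5 livers it was at 80% and 72.7% in wild-type and 69.0% and 66.0% in mutants, again lower with no overlap. Among windows of all genes, mutants lay wholly above wild-type in 32.3%, 35.4% and 28.7% at these stages, and wholly below in 8.63%, 7.90% and 9.37%. With CpGs kept from 1 read on, the window held 4 CpGs and the genotypes overlapped in every tissue. Wild-type libraries were then at 80.3% and 89.8%, 57.9% and 59.1%, and 80.8% and 71.2% at the 3 stages, and mutants at 81.4% and 75%, 57.2% and 65.4%, and 71.4% and 67.7% (edgeR adjusted p = 0.705, 0.957 and 0.818).

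By genotype no start-site window of the 4 was called in any tissue. In edgeR, adjusted p was at least 0.312 in E10.5 embryos, 0.595 in E14.5 livers and 0.585 in E18.5 livers, and 0.228 for the mean over tissues. At an unadjusted p under 0.05 there were 1, 1, 0 and 1 of the 4. The share of all windows called was 0.672%, 0.235%, 0.301% and 3.93%. Leaving out 1 library took these shares to as little as 0.0211%, 0.0331%, 0% and 1.98%. In E10.5 embryos the Cyp4a31 window was 9.72 points higher in mutants, at 78.3% and 79.6% against 86.1% and 91.2% (edgeR adjusted p = 0.312).

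Over the whole gene span, all 6 genes had enough CpGs. From E10.5 to E14.5 the differences were -26.3 points in Cyp4a10, -24.8 in Cyp4a14, -23.5 in Cyp4a32, -22.2 in Cyp4a31, -18.9 in Cyp4a12a and -16.2 in Cyp4a12b, and all passed the test (edgeR over 29183 spans, adjusted p of at most 4.02e-15), where 80.3% of all spans were called lower. From E14.5 to E18.5 all 6 rose, by 5.71 points in Cyp4a12b to 9.72 points in Cyp4a10 (edgeR adjusted p of at most 0.00436), where 43.0% of all spans were called higher. By genotype edgeR called 0 of the 6 in any tissue and 0 for the mean, with 0, 0, 0 and 1 at an unadjusted p under 0.05, while 2.49%, 1.17%, 0.805% and 10.9% of all spans were called. The lowest adjusted p, for the mean over tissues, was 0.0877. Gene spans were added as a measure after the data were seen.

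**Figure D3:**
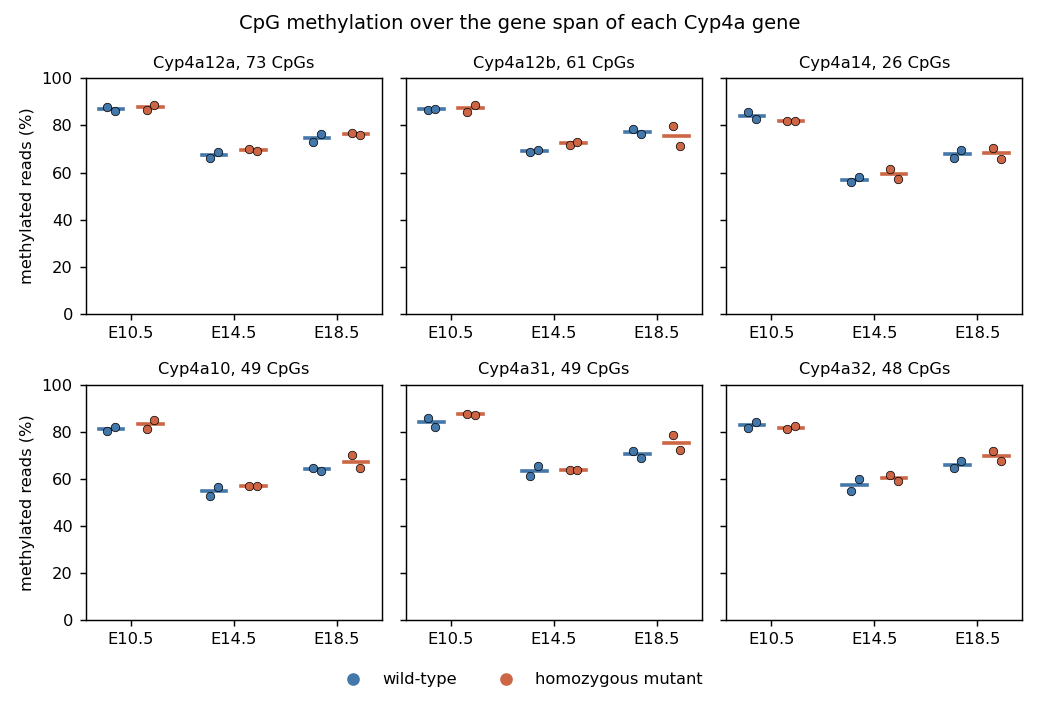
Percent of methylated reads over the span of each Cyp4a gene by stage, with points for libraries and lines for group means (2 libraries per group). All 6 genes are highest in E10.5 embryos, lowest in E14.5 livers and between these in E18.5 livers, and none was called by genotype.

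Tiles of 1 kb gave a finer view. The cluster holds 80 tiles with at least 4 measured CpGs, and a tile was called at an adjusted p under 0.05 over all 1198570 tiles and a difference of at least 15 points. From E10.5 to E14.5, 66 of the 80 were called lower and 0 higher, where 63.3% of all tiles were called lower. The median difference was -20.5 points in the cluster and -18.1 points over all tiles. By genotype edgeR called 0 of 80 within E10.5, E14.5 and E18.5 and for the mean, with 3, 4, 5 and 9 tiles at an unadjusted p under 0.05. The share of all tiles called was 0.175%, 0.0655%, 0.0900% and 0.0936%. The genotype difference of the tiles ran from -13.0 to 9.19 points at E10.5, from -9.67 to 10.1 at E14.5 and from -14.5 to 11.9 at E18.5.

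From E14.5 to E18.5, 4 of the 80 tiles were called higher, against 1.85% of all tiles. They were chr4:115033001-115034000 in the gene model Gm12836, chr4:115167001-115168000 inside Cyp4a14 around its exon 2, chr4:115199001-115200000 inside Cyp4a10, and chr4:115223001-115224000 between genes. Their rises were 16.4, 18.45, 15.5 and 19.5 points (edgeR adjusted p = 0.000374, 0.00898, 0.00546 and 0.00459). With at least 10 reads 2 tiles of 53 were called, and with tiles of 2 kb 2 of 94 were, against 1.498% and 1.479% of all tiles in either direction. Without 1 library at a time, as raw differences with no refit, the first rose by as little as 14.8 points (without E18.5 mutant replicate 1) and the third by as little as 13.0 points (without E18.5 wild-type replicate 1), both under the 15 points of a call, while the others stayed above it. In wild-type libraries alone the last of the 4 rose by 14.01 points.

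**Figure D4:**
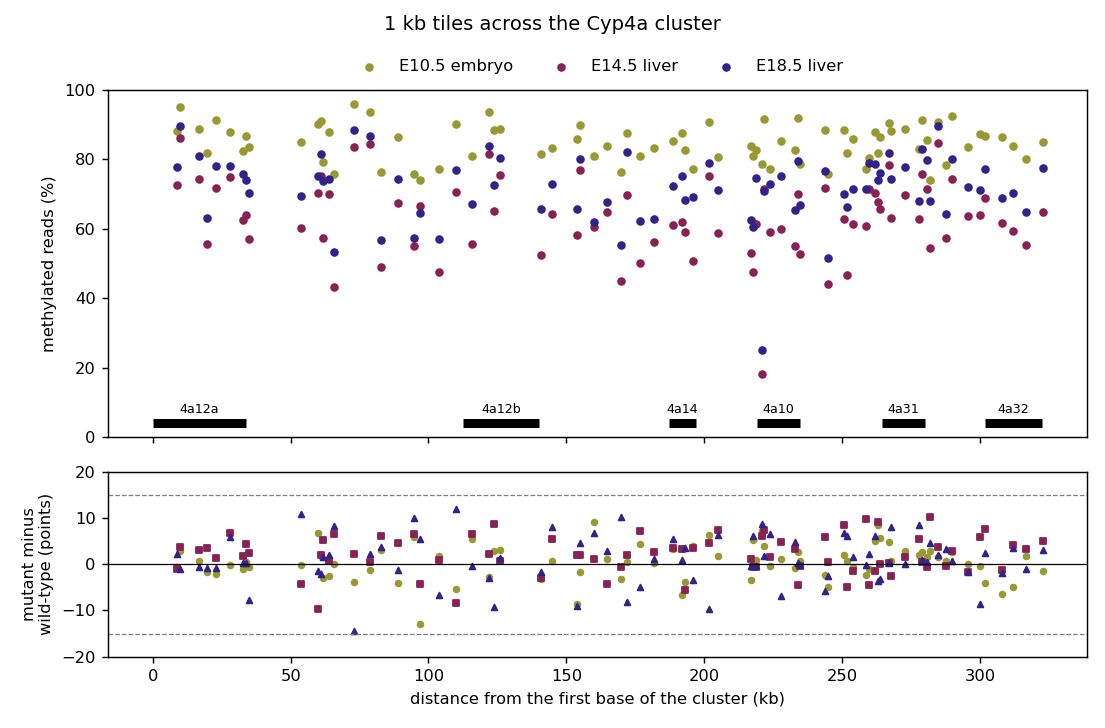
Methylation of 1 kb tiles across the Cyp4a cluster as the mean of 4 libraries per stage (upper panel, percent), and mutant minus wild-type in points (lower panel, circles E10.5, squares E14.5, triangles E18.5, dashed lines at 15 points either way). Black bars mark the genes, 1 tile in Cyp4a10 lies far below the rest in both liver stages, and no tile reaches 15 points by genotype.

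The least methylated tile of the cluster in wild-type E14.5 livers was chr4:115192001-115193000, which holds exon 2 of Cyp4a10 (chr4:115192235-115192379). Its 5 measured CpGs lie 1244 to 1504 bases downstream of the start site. The tile was at 73.1% and 77.2% in wild-type and 80.0% and 84.5% in mutant E10.5 embryos. In E14.5 livers it was at 13.3% and 16.96% in wild-type and 21.8% and 20.5% in mutants. In E18.5 livers it was at 24.3% and 17.2% in wild-type and 32.7% and 26.3% in mutants. The liver libraries lie wholly below the embryo libraries. To E14.5 it fell by 60.6 points, and 1748 of all 1198570 tiles (0.146%) fell further. The tile was singled out for its low level in wild-type E14.5 livers, which favours a large fall, but the choice did not use the other libraries. From E10.5 embryo to E18.5 liver, for instance, it fell by 53.6 points.

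The stretch that holds 4 of these CpGs in the reference is shown because it lies in the tile singled out above. That tile also fell the most of the 80. The stretch ends with exon 2, in NCBIM37 on the plus strand, with reference CpGs in capitals.
Cyp4a10 exon 2 stretch, chr4:115192080-115192379: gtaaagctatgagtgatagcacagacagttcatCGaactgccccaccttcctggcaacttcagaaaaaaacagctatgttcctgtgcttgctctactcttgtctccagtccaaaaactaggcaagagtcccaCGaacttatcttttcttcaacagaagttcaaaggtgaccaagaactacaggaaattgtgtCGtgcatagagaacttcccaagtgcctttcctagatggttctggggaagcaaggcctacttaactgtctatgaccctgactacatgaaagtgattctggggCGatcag
The CpG at chr4:115192252 was measured in all libraries but is not a CpG in the reference, so it is not in capitals. The authors' alignment used a genome with FVB substitutions.

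CpG by CpG, 3 neighbouring CpGs were lowest. The CpG 1343 bases downstream of the start was at 64.5% to 78.8% in embryos, 4.84% to 16.7% in liver at E14.5 and 0% to 20% at E18.5. The CpG at 1403 bases was at 64% to 87.0%, 5.56% to 11.4% and 0% to 19.05% in the same order, and the one at 1383 bases at 73.9% to 87.5%, 8.47% to 16.7% and 16.0% to 37.5%. The CpG at 1504 bases was at 55.6% to 100% in embryos, 15.2% to 28% at E14.5 and 20% to 64.3% at E18.5, where it overlapped the embryos. At 1244 bases embryos were at 72.2% to 92.3% and E14.5 livers at 34.9% to 48.8%, and E18.5 livers were at 37.5% and 24.1% in wild-type and 73.7% and 60.9% in mutants, the first of which lies within the embryo range. The next CpG with enough reads, at 2456 bases, was at 63.6% to 90.3% in liver at E14.5 and 59.1% to 71.4% at E18.5. Where the low stretch ends downstream is therefore not resolved. The 5 CpGs of the tile were covered by 6 to 62 reads per library.

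**Figure D5:**
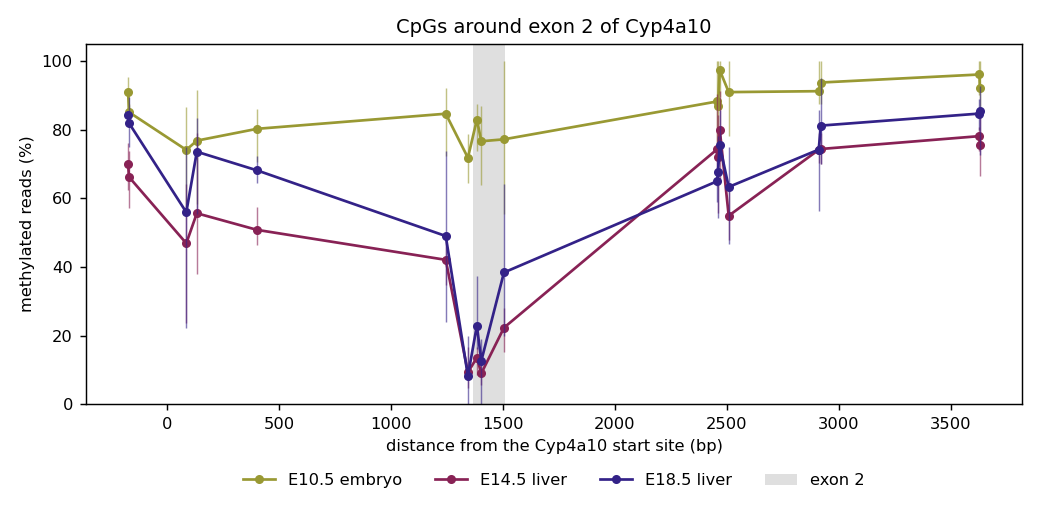
Methylation of single CpGs around exon 2 of Cyp4a10 against distance from the start site, with points at the mean of 4 libraries per stage, joined by lines, and thin vertical lines from the lowest to the highest library. From 1343 to 1403 bases the liver means lie between 8.27% and 22.9%, and the embryo means between 71.8% and 82.9%.

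By genotype this tile was 7.07 points higher in mutants in E10.5 embryos, 6.03 points in E14.5 livers and 8.73 points in E18.5 livers, with mutants above wild-type and no overlap in each tissue. Its choice by a low wild-type level at E14.5 favours mutants above wild-type at that stage, and this enters the mean over tissues. The share of tiles with mutants wholly above in all tissues at once was not computed. Of all 1 kb tiles, 27.2%, 31.4% and 28.9% had mutants wholly above wild-type at these stages. The tile was not called (edgeR adjusted p = 0.673, 0.896 and 0.620, and 0.101 for the mean of 7.28 points). Its 5 CpGs did not move alike at E18.5, where mutant minus wild-type was 36.5 points at 1244 bases, 8.21 at 1343, -7.66 at 1383, 11.8 at 1403 and -16.8 at 1504. Cyp4a10 RNA in E14.5 livers, as given above, was 2 counts in 1 library.

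Windows at the same exon of the other genes (exon 2 and 250 bases to either side) were added after the Cyp4a10 values were seen. In E14.5 livers the Cyp4a31 window, with 2 CpGs, was at 39.4% to 41.3%, the Cyp4a14 window, with 3 CpGs, at 40.6% to 64.8%, and the Cyp4a32 window, with 2 CpGs, at 57.4% to 66.3%. No measured CpG lay in the window of Cyp4a12a or Cyp4a12b. In E10.5 embryos the 3 measured windows were at 71.4% to 92.7%. These CpGs are few and are not the same positions, and the differences between genes were not tested.

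The other 2 least methylated tiles were chr4:115037001-115038000, between genes, at 40.2% and 39.9% in wild-type E14.5 livers, and chr4:115216001-115217000, in the gene model Gm12832, at 40.2% and 47.3%. In E10.5 embryos the first was at 73.3% to 78.3% and the second at 71.1% to 79.6%, with differences of -32.5 and -31.8 points to E14.5. Neither was called by genotype.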

How the data were processed

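The authors deposited raw read counts per Ensembl gene for each RNA-seq library, from single-end reads aligned with TopHat to mm9 and counted with HTSeq without strand. For each bisulphite library the authors deposited counts of unconverted (methylated) and converted reads per CpG with both strands merged, from Bismark and Bowtie2 alignments to mm9 with FVB substitutions. A rounded methylation percent was deposited beside the counts and was not used. H3K4me1 libraries were not analysed here.

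RNA counts were tested with edgeR 4.0.16 in R 4.3.3 (TMM factors, filterByExpr, quasi-likelihood test, Benjamini-Hochberg adjustment), and with DESeq2 1.42.0 as an alternative. Levels per kilobase used exonic bases. A CpG was kept where each of the 12 libraries had 6 or more reads. Methylated and unmethylated reads were summed over start-site windows of 1 kb to either side (at least 3 CpGs), gene spans and 1 kb tiles (at least 4 CpGs), and tested with edgeR in 1 fit of 12 libraries with a coefficient for each of the 6 groups. Printed percents are methylated reads over all reads of a library, and group values are means of libraries. A called tile also needed a difference of 15 points. Depth was 12928313 to 14621004 counts per RNA-seq library and 22.6 to 45.4 reads per kept autosomal CpG in bisulphite libraries. Depth went with stage, with E14.5 libraries at 40.4 reads or more and those of the other stages at 25.7 or fewer. Intervals and floors cover counting error only.

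The members and gene lists were chosen with earlier results of these data known. Named were the 6 genes, Rlf, neighbours within 250 kb with a mean of at least 1 CPM, genes of the pathway list that were called, Ppara, the 5 genes most like Cyp4a12a, called tiles (the 66 called from E10.5 to E14.5 by their count only) and the 3 least methylated tiles. In RNA-seq the deviations of same-numbered wild-type and mutant livers correlated (r = 0.155, 0.220 and 0.426 over 14183 genes), and replicate 3 is the female pair. The labels give replicate numbers but no pairing of wild-type with mutant livers, and livers with different numbers were not correlated. The RNA tests printed here left the replicate number out, except where the replicate block is named. With the block 460 genes were called by genotype, against 197 without it. Scripts were tested on simulated data, after the simulated spread of methylation was set to that of the libraries because a wider one recovered few changes. Alternatives were the count minimum, window and tile width, normalization, filter, covariates, the replicate block, each tissue or the wild-type alone, and leaving out libraries. Gene spans, values within 1 sex, marker sums without their main genes and marker calls with the replicate block were added after the data were seen.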

Additional observations from a re-analysis of the deposited data

Results flagged for a closer look

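The difference between mutant and wild-type libraries turned sign between tissues, with every mutant library on one side in one tissue and on the other side in another, in 3 windows and 12 tiles. The difference between tissues was not tested in the windows with under 3 CpGs. The Cyp4a14 start-site window, on 2 CpGs, was -10.9 points in mutants at E10.5, 5.45 points at E14.5 and -8.88 points at E18.5. The Cyp4a32 start-site window, on 9 CpGs, was 7.66 points higher in mutants at E14.5 and 3.25 points at E18.5, and -3.91 points at E10.5, and its interaction of genotype with stage had an edgeR adjusted p of 1.0. The window around exon 2 of Cyp4a32, on 2 CpGs, was -6.53 points at E10.5 and 5.94 points at E14.5. With CpGs kept from 1 read on, the Cyp4a14 window, then on 4 CpGs, was at -6.88, 2.80 and -6.42 points and overlapped between genotypes in every tissue. The exon 2 window of Cyp4a32, then on 5 CpGs, was at -6.71 points at E10.5, and at 6.53 and -5.74 points with overlap at E14.5 and E18.5. The Cyp4a32 start-site window, then on 12 CpGs, was at -4.03, 8.51 and 3.37 points, still with no overlap. With 2 libraries per group, of all start-site windows at E10.5, E14.5 and E18.5, 32.3%, 35.4% and 28.7% had mutants wholly above wild-type and 8.63%, 7.90% and 9.37% wholly below. The same turn of sign occurred in 12 of the 80 tiles of the cluster, or 15% against 9.89% of all tiles, and the difference of these shares was not tested. By the first base of the tile on chromosome 4, the largest difference of the 3 tissues was -2.17 points at 115032001, 5.12 at 115033001, 4.66 at 115060001, 11.9 at 115081001, -9.30 at 115095001, 4.48 at 115126001, -6.59 at 115163001, -9.59 at 115173001, -4.58 at 115205001, 7.60 at 115273001, -4.88 at 115283001 and 4.90 at 115294001. In the tile at 115173001, on 11 CpGs, mutants were wholly above at E10.5 (6.26 points) and E14.5 (4.50 points) and wholly below at E18.5, and in the tile at 115081001, on 6 CpGs, wholly below at E10.5 (-5.46 points) and E14.5 (-8.47 points) and wholly above at E18.5. The interaction of genotype with stage, from E10.5 to E14.5 or from E14.5 to E18.5, was called in 0 of the 80 tiles (edgeR, lowest adjusted p 1.0), and 10 of the 160 tests (6.25%) had an unadjusted p under 0.05. Over all tiles 13 of 2397140 such tests were called, and 3.78% had an unadjusted p under 0.05.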

How the results depend on the processing

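The fall of the start-site windows from E10.5 to E14.5 was called in 4 of 4 whichever library was left out and in wild-type libraries alone, and in both of the 2 windows that a width of 500 bp left. Of all windows, 73.1% to 76.9%, 68.6% and 66.4% were called in either direction under these settings. The rise from E14.5 to E18.5 was called in 2 windows with at least 10 reads, 1 with 500 bp, 2 with the replicate block, 0 in wild-type libraries alone and 0 to 4 when a library was left out, where 20.8%, 7.11%, 19.5%, 0.157% and 6.46% to 26.8% of all windows were called in either direction. Of the cluster tiles, 40 of the 53 testable at 10 reads were called from E10.5 to E14.5 (60.2% of all tiles), and from E14.5 to E18.5 2 were called at 10 reads and 2 with tiles of 2 kb. No genotype call of the start-site windows or tiles was gained under any alternative run. The cluster difference by genotype was 1.90 points with at least 1 read (exact permutation p = 0.0370), 1.63 with at least 10 (p = 0.102) and 1.77 as a mean over CpGs (p = 0.0833), and 0.965 to 2.53 when a library was left out. Of the pathway genes, 5 were called with no filter, 4 with the replicate block and 1 to 2 when a library was left out (2 without wild-type replicate 2), where 2.42%, 3.24% and 0.459% to 1.56% of all genes were called.

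Several genotype differences of start-site windows that were not called turned sign, as adjusted p. With 500 bp, Cyp4a10 was at 0.911 (E10.5), 1.0 (E14.5) and 0.857 (mean). With at least 1 read, Cyp4a12a was at 0.985 (E10.5). Over gene spans, Cyp4a12a was at 0.818 (E10.5) and 0.696 (E14.5), Cyp4a31 at 0.904 (E14.5) and Cyp4a10 at 0.677 (E18.5). Leaving out libraries gave Cyp4a12a 0.675 to 0.992 (E10.5), 0.891 to 1.0 (E14.5) and 0.329 to 0.909 (mean), Cyp4a10 0.761 to 1.0 (E14.5), 0.908 to 0.979 (E18.5) and 0.697 to 0.997 (mean), Cyp4a31 0.944 to 1.0 (E14.5) and Cyp4a32 0.570 to 0.999 (mean). The cause was not tested. In bisulphite libraries same-numbered samples share a number and, at E14.5, also their sex (r = 0.0421, 0.246 and -0.0327 at the 3 stages). The replicate block raised the number of start-site windows of all genes called by genotype. It went from 223 to 798 at E10.5, 78 to 475 at E14.5, 100 to 333 at E18.5 and 1306 to 2381 for the mean. Tiles called by genotype over the genome went from 2093 to 2354, 785 to 900, 1079 to 1375 and 1122 to 1124 in the same order. Refits without a library were not run for tiles. Few CpGs per window and 2 libraries per group limit these values.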
